A study of Mus musculus with 21 samples.

Results

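The regions described here are the short end of 2 maps of chromatin domains, those of 400 kb or less in mouse Th2 cells and in mouse embryonic stem (ES) cells. They were chosen by length alone, as domains whose end minus start was at most 400 kb in the combined list of either cell type on chromosomes 1 to 19. This gave 412 of 1886 Th2 domains (21.8%) and 326 of 1978 ES domains (16.5%), or 738 of 3864 domains in all. Since the lengths chose them, these shares describe the lists and are not tested. The lists came from 3e Hi-C, a form of chromosome conformation capture in which crosslinked chromatin is cut with 3 restriction enzymes (CviQ I, CviA II and Bfa I), ligated and sequenced. The series has 21 samples, of which 4 are Hi-C libraries, 2 per cell type. Each cell type has 1 combined list and each library a list of its own. The ChIP-seq and RNA libraries are not analysed here.

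The Th2 libraries were of T helper cells made in culture. Naive CD4+ T cells sorted as CD25-, CD62L high and CD44 low from lymph nodes of C57BL/6 mice went through 2 rounds of polarisation with IL-4, IL-2 and antibodies against IFNγ and IL-12. The ES libraries were of the R1 line (strain 129X1 x 129S1), a single line grown on dishes coated with feeder cells, and whether feeder cells entered the libraries was not tested. Neither group carried a genetic or drug treatment by its labels. Cell type, strain and culture cannot be told apart in this comparison. Nothing in the labels says whether libraries of a cell type came from separate cultures, so their spread may be technical. Domain lists hold no expression values, so the labelled cell types were not checked against markers.

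Chromatin domains are stretches of a chromosome within which loci touch each other more often than they touch loci outside. In mammals many of their edges are bound by CTCF and cohesin, a ring complex that is thought to extrude loops of chromatin until CTCF stops it. A domain limits which enhancers and promoters meet, and a domain that is undivided in one cell type can hold several smaller ones in another. Short domains span only a few bins of such a map.

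Both lists are written on a grid of 40 kb bins, and the shortest domain in either combined list was 160 kb, or 4 bins. Th2 cells had 27 domains of that length and ES cells had 8. At 200 kb the lists held 35 and 32 domains, and at 240 kb 56 and 30. From 320 kb upward the combined lists were close in number. The domains just inside the limit, of 400 kb, numbered 73 in Th2 and 70 in ES, and those just outside it, of 440 kb, numbered 70 and 72. The larger number in the combined Th2 list therefore lay mostly in domains of 280 kb or less, which the plot of domain lengths shows. The single libraries did not meet in this way. At 320 kb Th2 libraries 1 and 2 had 80 and 48 domains and ES libraries 1 and 2 had 43 and 53. At 400 kb the Th2 libraries had 86 and 63 and the ES libraries 53 each. Domains of 160 to 240 kb made up 28.6% of the small Th2 domains and 21.5% of the small ES domains. The median length of the small domains was 320 kb in both lists, and their sequence added up to 124.6 Mb in Th2 and 103.0 Mb in ES.

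**Figure D1:**
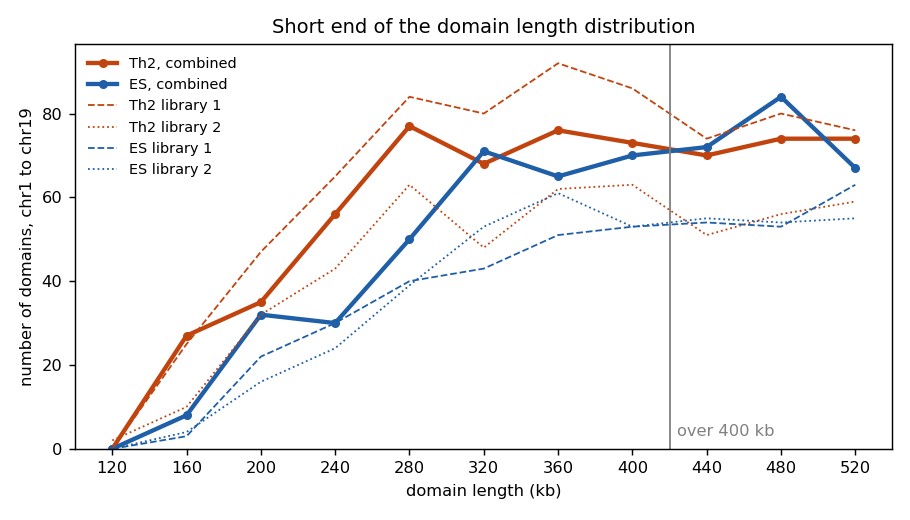
Number of domains on chromosomes 1 to 19 (y axis) at each length from 120 to 520 kb (x axis) in the combined lists (thick lines) and in the 4 libraries (thin lines). The combined Th2 line lies above the combined ES line at 160 to 280 kb (27 against 8 at 160 kb), and the 2 meet near the limit of 400 kb.

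The single libraries, whose lengths the choice did not use, gave the same order of cell types, although the combined lists rest on the same reads. Th2 library 1 had 479 domains of 400 kb or less among 1909 (25.1%) and Th2 library 2 had 323 among 1640 (19.7%). ES library 1 had 242 among 1775 (13.6%) and ES library 2 had 250 among 1778 (14.1%). Both Th2 libraries lay above both ES libraries, and the Th2 libraries were much farther from each other than the ES libraries were. The mean share was 22.4% ± 3.82 in Th2 and 13.8% ± 0.302 in ES (SD, n = 2 each), a difference of −8.55 percentage points for ES minus Th2. The exact two-sided permutation test gave p = 0.33, the smallest that 2 against 2 libraries allow, so the design cannot reach 0.05. The total number of domains did not separate the cell types, at 1774.5 ± 190 and 1776.5 ± 2.12 (SD, n = 2 each). In base pairs the small domains held 7.67% and 5.37% of the domain sequence in the Th2 libraries and 3.8% and 3.98% in the ES libraries (difference −2.63 points, exact permutation p = 0.33). Leaving out Th2 library 1 brought the difference in number from −155 to −77 domains, and leaving out Th2 library 2 brought it to −233. The sources used here do not state the read depth of the Hi-C libraries, and its part in these counts was not tested.

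**Figure D2:**
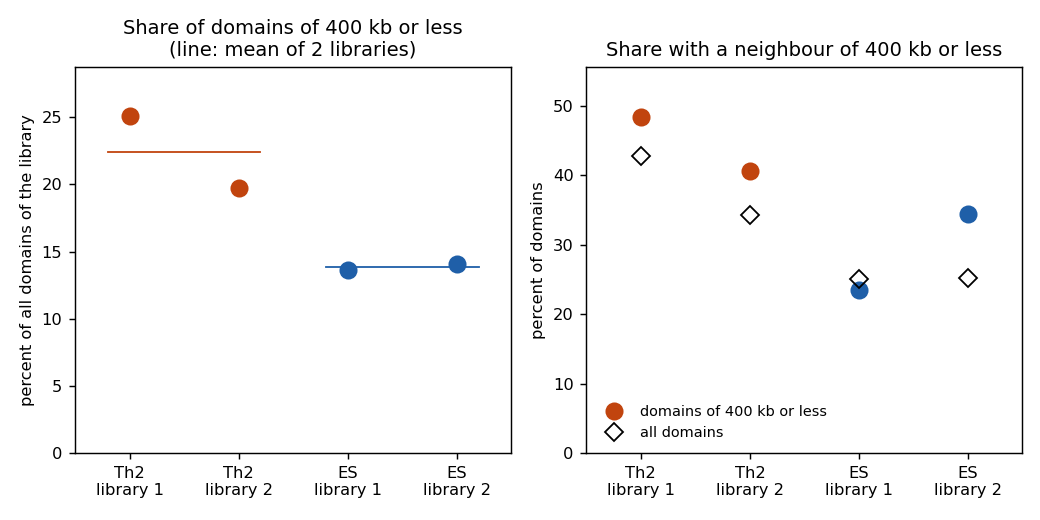
Left, percent of each library's domains that were 400 kb or less, with a line at the mean of each cell type. Right, percent of domains with an immediate neighbour of 400 kb or less, for the small domains (filled) and for all domains of the library (open diamonds). Both Th2 libraries (25.1% and 19.7%) lie above both ES libraries (13.6% and 14.1%) on the left, and on the right the small domains of ES library 1 (23.6%) lie below all its domains (25.1%).

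Chromosome 11 held the most small domains in the combined Th2 list, 46 of its 129 domains (35.7%). Its share was 36.6% and 33.6% in Th2 libraries 1 and 2 and 13.1% and 18.2% in ES libraries 1 and 2. The lowest shares in the combined Th2 list were those of chromosomes 3 and 2, each 15.8%. In ES cells chromosome 9 had the highest share, 30 of 121 domains (24.8%), and chromosome 10 the lowest, 11 of 108 (10.2%). On chromosomes 9 and 12 the combined lists went against the libraries. On chromosome 9 the combined share was lower in Th2 (19.5%) than in ES (24.8%), whereas the libraries gave 25.4% and 21.0% in Th2 and 17.8% and 20.8% in ES. On chromosome 12 the combined shares were 15.9% in Th2 and 16.5% in ES, and the libraries gave 21.0% and 18.2% against 12.0% and 13.6%. On 16 of 19 chromosomes (84.2%) both Th2 libraries had a higher share than both ES libraries, and on none was the order the reverse. The libraries of the other 3 chromosomes, 3, 8 and 19, overlapped between cell types. Over the 19 chromosomes the shares correlated with r = 0.66 between the Th2 libraries, 0.68 between the ES libraries and 0.053 to 0.48 between a Th2 and an ES library. These values describe 19 points that share their library and caller.

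**Figure D3:**
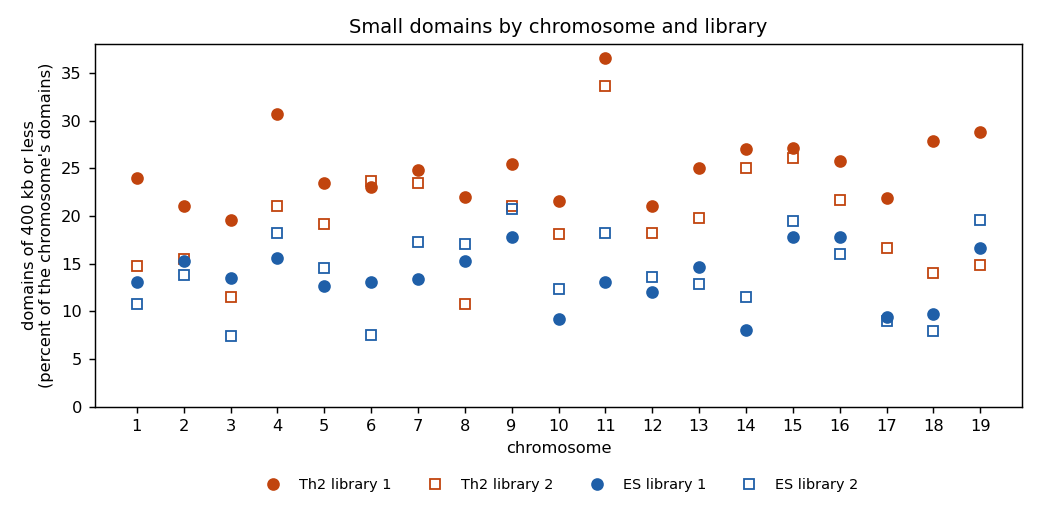
Percent of a chromosome's domains that were 400 kb or less (y axis) on chromosomes 1 to 19 (x axis) in each of the 4 libraries. The Th2 libraries stand farthest above the ES libraries on chromosome 11, at 36.6% and 33.6% against 13.1% and 18.2%.

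Small domains of the combined Th2 list lay next to each other more often than its domains as a whole had a small neighbour, and those of the ES list did so by a smaller margin. In Th2, 189 of 412 small domains (45.9%, 95% Wilson interval 41.1 to 50.7, counting error only) had another small domain as an immediate neighbour, against 37.9% of all Th2 domains and 35.7% of those over 400 kb. In ES, 108 of 326 did (33.1%, interval 28.2 to 38.4), against 29.5% of all ES domains and 28.8% of those over 400 kb. The excess of small over all domains was thus 7.96 points in Th2 and 3.65 points in ES, and the ES interval includes the share of all domains. By library the small domains had a small neighbour in 48.4% and 40.6% of cases in Th2, against 42.8% and 34.3% of all domains. The ES libraries gave 23.6% and 34.4% against 25.1% and 25.3%. The excess was therefore 5.64 and 6.23 points in the Th2 libraries but −1.57 and 9.15 points in the ES libraries, which differed in sign. The share itself differed by −15.5 points between cell types (ES minus Th2, exact permutation p = 0.33). All domains of a library, small or not, also had a small neighbour more often in Th2, and after subtraction of each library's share over all domains the difference was −2.15 points (exact permutation p = 1). With a limit of 320 kb the excess was 2.62 points in the combined Th2 list and −1.40 points in the combined ES list.

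Runs of consecutive small domains were short in both lists. Th2 had 75 runs of 2 or more, holding 189 domains, and 26 runs of 3 or more, holding 91. ES had 44 runs of 2 or more with 108 domains and 11 runs of 3 or more with 42. The other 223 Th2 and 218 ES small domains stood alone between longer ones. Gaps of any length were allowed within a run. The longest run had 6 members in each combined list, and 5 in each when gaps were limited to 40 kb. By library, with any gap, the longest had 6 and 4 members in Th2 and 3 and 4 in ES. Along 472 windows of 5 Mb, 253 windows held no small Th2 domain and 271 no small ES domain. At the other end 47 windows held 3 or more in Th2, together 175 domains, and 26 held 3 or more in ES, together 99 domains. The Th2 list had more small domains to begin with, a mean of 0.873 per window against 0.691 in ES. These window counts therefore do not compare clustering between the cell types.

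The window with most small ES domains, chr5:120000001-125000000, held 9 in the combined ES list and 5 in the combined Th2 list. Its libraries held 5 and 5 in Th2 and 4 and 7 in ES, so it was rich in small domains in both cell types. The same was seen at chr17:25000001-30000000, with 6 small ES and 4 small Th2 domains (3 and 3 in the Th2 libraries, 3 and 2 in the ES libraries). At chr15:80000001-85000000 there were 5 and 3 (3 and 4 against 4 and 3 by library). The other 2 of the 5 windows richest in ES held few small Th2 domains. chr4:115000001-120000000 held 5 small ES and 0 small Th2 domains, with 0 and 1 in the Th2 libraries and 3 and 5 in the ES libraries. chr9:45000001-50000000 gave the same counts. Of the windows richest in Th2, chr4:130000001-135000000 held 6 small Th2 and 3 small ES domains (6 and 4 against 1 and 3 by library), and chr6:85000001-90000000 held 6 and 3 (5 and 5 against 2 and 2). Counts in single windows are too low to set apart from the spread between libraries. At chr1:135000001-140000000, for example, the Th2 libraries held 6 and 1.

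Small domains abutted both neighbours more often than longer ones did. Of small Th2 domains with a neighbour on each side, 51.0% shared both edges directly with them, without a gap, against 36.2% of Th2 domains over 400 kb. In ES the shares were 27.2% and 21.6%. The same order held in each library, with 59.3% against 48.2% and 37.1% against 22.4% in the Th2 libraries and 25.6% against 18.9% and 17.3% against 15.2% in the ES libraries. The neighbours of small domains were somewhat shorter than those of longer domains, with a median of 640 against 760 kb in Th2 and 760 against 840 kb in ES.

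Each small domain was then looked up in the other cell type. An edge counted as found when the other list placed one within 40 kb. A domain with both edges in 1 domain of the other list is called the same domain. A domain that lay inside 1 longer domain was placed either at its edge, with 1 edge in common, or in its interior. The remaining domains were crossed by an edge of the other list, lay partly outside its domains or lay outside them. Length alone affects these classes, since a short stretch fits into a longer domain more easily and is crossed less easily, so the shares over all domains are a background and not a matched one.

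Most small Th2 domains were part of a larger ES domain. Of 412, 204 (49.5%) lay at the edge of a larger ES domain and 53 (12.9%) in the interior of one, against 30.1% and 6.42% of all 1886 Th2 domains. The same domain was found in ES cells for 94 (22.8%, 95% Wilson interval 19 to 27.1), close to the 23.9% of all Th2 domains. An ES edge crossed only 10 (2.43%), against 24.2% of all. A further 36 (8.74%) lay partly and 15 (3.64%) wholly outside ES domains, against 14.1% and 1.22% of all.

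Small ES domains had a like outcome in Th2 cells. Of 326, 148 (45.4%) lay at the edge and 54 (16.6%) in the interior of a larger Th2 domain, against 29.4% and 9.81% of all 1978 ES domains. The same domain was found for 97 (29.8%, interval 25.1 to 34.9), against 22.8% of all. Only 9 (2.76%) were crossed by a Th2 edge, against 22.6% of all, and 9 each lay partly or wholly outside Th2 domains, against 11.5% and 3.89% of all. In each direction 89 of the domains found were 400 kb or less in both lists, which is 21.6% of the small Th2 and 27.3% of the small ES domains. For 42 of them both edges fell on the same bin. In base pairs 26.2% of the small-domain sequence of Th2 was in a small ES domain and 66.0% in a longer one, and 31.7% of that of ES was in a small Th2 domain and 64.1% in a longer one. Of all Th2 domain sequence 5.11% lay in small ES domains, and of all ES domain sequence 5.62% lay in small Th2 domains.

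Longer members were found again more often in Th2. The share with the same ES domain was 16.9% of Th2 domains of 160 to 240 kb, 22.8% at 280 to 320 kb and 27.5% at 360 to 400 kb. Just outside the limit, at 440 to 480 kb, it was 31.2%. The share inside a larger ES domain went the other way, from 72.0% through 63.4% and 53.7% to 49.3%. ES domains did not show such an order, with 25.7%, 36.4%, 25.9% and 32.1% found as the same Th2 domain at these lengths. Within their own cell type the shortest Th2 domains were also found least often. Th2 library 1 had the same domain for 71.2%, 78.6%, 83.2% and 74.3% at these lengths. Th2 library 2 had it for 52.5%, 66.2%, 63.8% and 62.5%. The lower share of the shortest Th2 domains is thus not particular to the lookup in ES cells. The shortest ES domains were also found least often in their own cell type. ES library 1 had the same domain for 60%, 63.6%, 63.0% and 65.4% of ES domains at these lengths. ES library 2 had it for 42.9%, 63.6%, 65.2% and 62.2%.

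The same lookup was made between libraries of 1 cell type. Among the small domains of Th2 library 1, 47.8% were the same domain in Th2 library 2, and 70.9% were in the reverse direction. The ES libraries gave 56.6% and 56.8%. Over all domains of these libraries, small or not, the shares were 46.1% and 53.7% in Th2 and 55.6% and 55.5% in ES, so 3 of the 4 values for small domains were near this background. Between cell types the share was 15.7% to 21.1% from a Th2 into an ES library and 23.6% to 34.4% from an ES into a Th2 library. All 4 within-type values thus lay above all 8 between-type values. The means were 58.0% and 23.5%, a difference of 34.5 points, with an exact permutation p = 0.33 as the smallest possible. Over all domains the means were 52.7% and 20.2%, a difference of 32.6 points, so the contrast is not particular to small domains. For small domains the difference was 31.6 to 37.2 points with any 1 library left out. Falling inside a larger domain was itself common between libraries of 1 cell type, at 26.3% to 46.6% of small domains, against 53.2% to 70.4% between cell types. Over all domains the ranges were 20.7% to 34.8% and 34.9% to 44.6%. Whether the 2 directions between cell types differ was not tested.

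**Figure D4:**
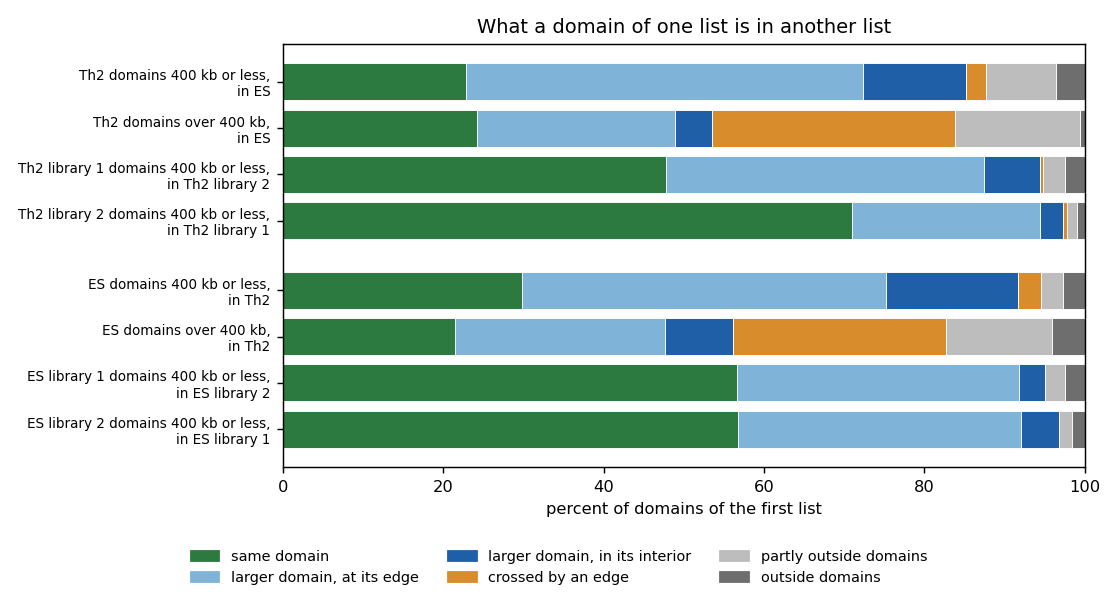
Percent of domains of the first list (x axis) in each of 6 classes in the second list. Bars show domains of 400 kb or less and over 400 kb in the other cell type, and small domains of 1 library in the other library of the same cell type. The same domain (green) was found for 22.8% of small Th2 and 29.8% of small ES domains in the other cell type, and for 47.8% to 70.9% between libraries of a cell type.

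Single edges were looked up in the same way. Of small Th2 domains 107 (26.0%) had both edges in the ES list, 230 (55.8%) had 1 and 75 (18.2%) had none. Over both edges of all members 53.9% were found, against 63.1% for Th2 domains over 400 kb while 14.1% of all grid positions lay within 40 kb of an ES edge. Of small ES domains 106 (32.5%) had both edges in the Th2 list, 157 (48.2%) had 1 and 63 (19.3%) had none. That made 56.6% of edges, against 57.6% for ES domains over 400 kb while 12.5% of all grid positions lay within 40 kb of a Th2 edge. In single ES libraries 48.4% and 50.5% of small Th2 edges were found, against 59.2% and 58.6% for Th2 domains over 400 kb. In single Th2 libraries 58.3% and 54.8% of small ES edges were found, against 57.6% and 53.8% for ES domains over 400 kb. In the libraries of their own cell type 79.1% to 89.1% of small-domain edges were found. That was near the 82.2% to 86.8% for domains over 400 kb. Where only 1 edge of a small Th2 domain was found, it was the start in 111 and the end in 119 cases. In ES it was the start in 87 and the end in 70.

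The larger domains around the members varied in length. The 257 small Th2 domains inside a larger ES domain fell into 215 ES domains, with a median length of 880 kb over the members (quartiles 640 and 1320 kb) and a median of 3.00 times the member's own length. The 202 small ES domains fell into 183 Th2 domains, with a median of 940 kb (quartiles 600 and 1360 kb). The median over all domains, small ones included, was 800 kb in ES and 760 kb in Th2. It is not a matched background, since the medians above count a larger domain once for each member in it. In 10 and 14 cases the larger domain was itself 400 kb or less. Mostly a single member was taken up. Of the ES domains, 179 held 1 small Th2 domain, 31 held 2 and 5 held 3 or more. Of the Th2 domains, 165 held 1 small ES domain, 17 held 2 and 1 held 3.

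Members joined a whole neighbour in the majority of cases. For 150 of the 257 (58.4%) 1 adjacent Th2 domain lay in the same ES domain, for 14 (5.45%) both did and for 93 (36.2%) neither did. Of the 178 neighbours so joined, counted once for each member, 80 (44.9%) were small themselves, and their median length was 440 kb. Adjacent small members of 1 larger domain each count the other. For the 202 small ES domains the counts were 100 (49.5%), 12 (5.94%) and 90 (44.6%), and 34 of 124 joined neighbours (27.4%) were small, with a median of 600 kb. Of all domains 21.8% in Th2 and 16.5% in ES were small. These are not matched backgrounds, since a short neighbour fits into a larger domain more easily. How often domains over 400 kb joined a neighbour in this way is not given here, so the majority describes the members only.

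The combined small domains were not all seen in both libraries of their own cell type. Of small Th2 domains 215 (52.2%) were the same domain in both Th2 libraries, 145 (35.2%) in 1 and 52 (12.6%) in neither, while 43.7% of all Th2 domains were in both. Of small ES domains 132 (40.5%) were in both ES libraries, 135 (41.4%) in 1 and 59 (18.1%) in neither, while 46.5% of all ES domains were in both. Among the 215 Th2 domains found in both Th2 libraries, 116 (54.0%) lay inside a larger domain in both ES libraries, 30 (14.0%) were the same domain in both and 34 (15.8%) in 1. Of the 116, 89 lay at an edge of the larger domain in both ES libraries and 14 in the interior in both. Among the 132 ES domains found in both ES libraries, 59 (44.7%) lay inside a larger domain in both Th2 libraries, 32 (24.2%) were the same domain in both and 26 (19.7%) in 1. Since the same domain may differ by 1 bin at each edge, its length in a library can pass 400 kb. Of the 116 Th2 regions 114 were 400 kb or less in both Th2 libraries, and for 110 of these both ES libraries had a domain over 400 kb. Of the 59 ES regions the counts were 56 and 48. The same shares over all domains found in both libraries of their own cell type are not given here. A short stretch fits into a longer domain more easily, so these counts only describe the members.

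Single regions show the classes. A domain of 160 kb at chr1:172800001-172960000 (coordinates in mm9, counted from 1) was on the same bins in both combined lists, and only Th2 library 2 merged it into a longer one. A Th2 domain of 200 kb at chr14:20920001-21120000 was on the same bins in the combined ES list and was the same domain in all 4 libraries. At chr1:36200001-36360000, a Th2 domain of 160 kb in both Th2 libraries, the combined ES list had 1 domain of 1400 kb, chr1:34960001-36360000, which ended on the same bin, and both ES libraries placed the region at the edge of a longer domain. At chr6:136760001-137160000, 400 kb long and found in both Th2 libraries, every ES list had an edge inside the region. In ES cells the domain chr8:93320001-93680000 (360 kb, in both ES libraries) had the same start but an earlier end in the combined Th2 list, chr8:93320001-93560000 (240 kb). All 3 Th2 lists left chr19:32560001-32760000 outside their domains, a domain of 200 kb in the combined ES list and ES library 1 that lay inside a longer one in ES library 2.

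The longest Th2 run spanned 3120 kb at chr11:29960001-33080000. Its members were chr11:29960001-30160000 (200 kb), then 4 domains side by side from 31120001 to 32640000 (400, 360, 360 and 400 kb) and chr11:32720001-33080000 (360 kb). The combined ES list had 1 domain of 1520 kb, chr11:31120001-32640000, in the place of those 4, the larger ES domain that held most small Th2 domains anywhere. The ES libraries had 1 domain of 1920 kb (library 1) and 2 domains of 880 and 960 kb (library 2) over this stretch. The Th2 libraries divided it too, but not at the same edges. Library 1 had domains of 440, 320, 360 and 840 kb, the last reaching to the end of the run. Library 2 had 3 domains of 760, 360 and 400 kb, and the last run member (360 kb) apart from them. Each Th2 library thus kept 4 of the 6 run members as the same domain, and neither ES library kept any. The combined ES list kept none either. It did have 2 small domains over the run, chr11:30560001-30840000 (280 kb) and chr11:32640001-33040000 (400 kb). Neither ES library had a small domain there.

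**Figure D5:**
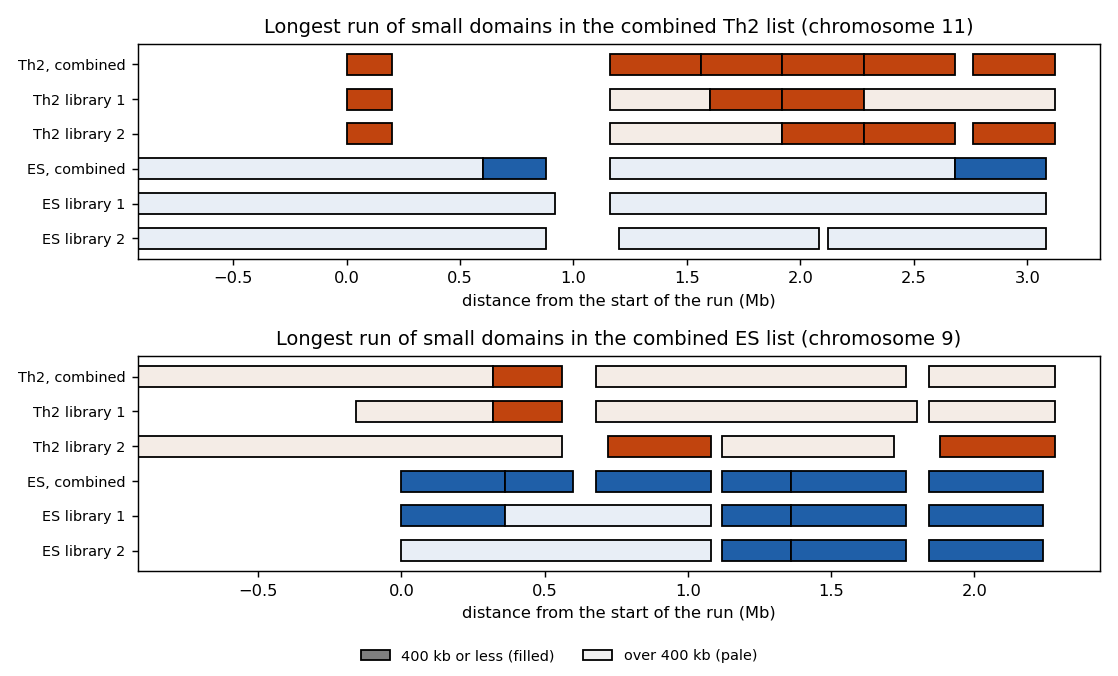
Domains of all 6 lists over the longest run of small Th2 domains (top) and of small ES domains (bottom), by distance from the start of the run in Mb. Domains of 400 kb or less are filled and longer ones pale. Where the combined Th2 list has 4 domains side by side the combined ES list has 1 of 1520 kb, and where the combined ES list has 3 the combined Th2 list has 1 of 1080 kb.

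The longest ES run, at chr9:43880001-46120000 (2240 kb), was only in part the reverse case. Its 6 members were 360, 240, 400, 240, 400 and 400 kb long. The combined Th2 list had 1 domain of 1080 kb, chr9:44560001-45640000, in the place of members 3 to 5, and Th2 library 1 had 1 of 1120 kb there. Th2 library 2 had 2, of 360 and 600 kb, the first of which was the same domain as member 3. Both ES libraries had members 4 and 5 (240 and 400 kb), and both had member 3 within a longer domain, of 720 kb in library 1 and 1080 kb in library 2. Member 6, chr9:45720001-46120000, was the same domain in all 6 lists. Each Th2 library held 2 of the 6 run members as the same domain, and ES libraries 1 and 2 held 4 and 3.

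Other runs differed in how much of them was shared. The second Th2 run, chr19:44640001-46640000, had 6 members, of which Th2 library 1 held 6 as the same domain, Th2 library 2 held 2 and each ES library held 2. The third, chr11:102560001-104360000, had 5 members, of which the Th2 libraries held 5 and 4 and the ES libraries 2 each. At chr2:26160001-27360000, 3 of 4 members were found in each Th2 library, and in ES cells these 3 lay in 1 domain of 840 kb, chr2:26480001-27320000, which both ES libraries had as the same domain. The remaining member, chr2:26160001-26480000, went the other way. It was the same domain in both ES libraries and lay inside a domain of 1000 kb in both Th2 libraries. At chr4:133080001-134480000 the Th2 libraries held 4 and 2 of 4 members and the ES libraries 1 and 2. Among the ES runs, chr5:120200001-121960000 had 5 members, of which the ES libraries held 2 and 4 and the Th2 libraries 1 each. chr5:122560001-124080000 was shared between cell types, with 3 of its 4 members the same domain in both Th2 libraries and 1 and 3 in the ES libraries. None of the 4 members of chr13:45640001-47400000 was found in a Th2 library, while the ES libraries held 3 and 1. At chr9:118800001-120040000 the combined Th2 list held 3 of 4 members, the Th2 libraries 2 and 1 and the ES libraries 2 and 0.

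Several other ES domains took up clusters of small Th2 domains. chr15:98320001-99800000 (1480 kb) held 3 and was the same domain in both ES libraries, while the Th2 libraries had 3 and 4 domains over it, of which 0 and 2 were small. chr6:142120001-143160000 (1040 kb) held 3, and both Th2 libraries had 3 small domains over it where each ES library had 1 long one. chr1:136000001-137000000 (1000 kb) held 3, with 3 small domains in Th2 library 1 and 0 in library 2. In the other direction chr5:119240001-120880000 (1640 kb in Th2) held 2 small ES domains. It was the same domain in both Th2 libraries, and each ES library had 3 domains there, of which 2 were small. chr15:53840001-57360000 (3520 kb in Th2) held 2, with 1 small domain in each ES library. Genes and base sequence of these regions are not given, since the reference tables used here are of another genome build than the lists.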

How the data were processed

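The 4 Hi-C libraries were grouped by the cell type in their sample titles. The submitters' processing notes name Bowtie2 and the mouse build mm9. Not given in the sources used here are the Bowtie2 version, the program that called domains and how libraries were combined. Each deposited list holds only the positions of domains, on bins of 40 kb, so no depth can be stated. Coordinates are printed counted from 1. The authors' expression tables were not used.

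Members, classes and regions were chosen with earlier results of these data known. Lengths, neighbours and classes were computed in Python 3.11.15 with numpy 2.4.6, scipy 1.17.1 and matplotlib 3.10.9, and checked on made-up lists with known answers. Classes took the first that applied, in the order given in the text, and an overlap had to exceed 40 kb. Libraries were compared by an exact two-sided permutation over the 6 assignments of 4 libraries to 2 cell types. Members are not replicates, so classes are counts without a test. Intervals are 95% Wilson. Regions were named by rule, namely the shortest members, the 5 longest runs, the 5 windows with most small domains, the 2 shortest members per class with that class in all 3 lists of the other cell type, and the 5 larger domains with most members. Of these, the ones printed were picked after their values were seen. Alternatives were limits of 320 and 480 kb, tolerances of 0 and 80 kb, neighbours only within 40 kb, single-library lists and leaving out each library.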

Additional observations from a re-analysis of the deposited data

How the results depend on the processing

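Of 76 recomputed values for 11 results, 61 kept their direction and, where untested, stayed within their counting interval, 13 moved beyond it and 2 reversed. Values with 1 library left out and with the replicate block are counted in, although their direction was fixed in advance. The reversals concern clustering in ES cells, where the excess over all domains of 3.65 points became −1.40 with a limit of 320 kb and −1.57 in library 1 alone. It was 9.15 in library 2 alone. The excess in Th2 moved from 7.96 to 2.62 points with a limit of 320 kb. The share of small Th2 domains with the same ES domain was 10.2% with a tolerance of 0 kb and 15.7% with the lists of libraries 1. It was 28.8% over the members found in both Th2 libraries, an alternative chosen after the data were seen. Their share inside a larger ES domain was 67.3% with a limit of 320 kb, 55.8% with a tolerance of 0 kb and 70.4% with the lists of libraries 1. The share of small ES domains with the same Th2 domain was 12.9% with a tolerance of 0 kb, 35.3% with 80 kb and 38.6% over the members found in both ES libraries. Their share inside a larger Th2 domain was 67.5% with 0 kb and 56.1% over those members. Apart from the limit and the list used, the cause of these moves was not tested. With 1 library left out the difference in number (ES minus Th2) was −233 to −77, in share −11.2 to −5.85 points, in sequence −3.78 to −1.48 points and in share with a small neighbour −20.9 to −10.1 points. None of these could change sign, since both Th2 libraries lay above both ES libraries in each measure. With the replicate block (libraries of the same number paired) the differences were −155, −8.55, −2.63 and −15.5. Pairing leaves the mean difference of equal groups unchanged, so these values had to equal those without it. The exact sign-flip permutation gave p = 0.5 in each, the smallest that 2 pairs allow. The differences between libraries 1 and 2 correlated with r = 0.0056 between the cell types over 6046 bins. That value covers only bins in small domains. It cannot decide whether libraries of the same number shared a batch. Resolution limits these results, since 160 kb is 4 bins and the tolerance is 1.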

Other observations

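Chromosome X lay outside the choice of domains. The combined lists had 8 of 55 domains of 400 kb or less there in Th2 cells (14.5%) and 4 of 64 in ES cells (6.25%). The libraries gave 7 of 52 and 7 of 49 in Th2 and 3 of 53 and 3 of 55 in ES. Th2 library 2 was the only list with domains below 160 kb on chromosomes 1 to 19, 2 of 120 kb.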
